A study of Sus scrofa with 220 samples.

Results

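The genes described are 6 surface marker genes of the CD nomenclature, CD79B, CD83, CD200, CD200R1, CD244 and CD247, in single cells of the pre-implantation pig embryo. They were taken by symbol from the 22840 gene entries of the deposited tables, and all 6 matched an Ensembl pig gene: ENSSSCG00000006374 (CD244), ENSSSCG00000006309 (CD247), ENSSSCG00000017283 (CD79B), ENSSSCG00000021576 (CD83), ENSSSCG00000027820 (CD200) and ENSSSCG00000011925 (CD200R1). The study had named these genes for their pattern across stages in the same cells, so the patterns below are not independent evidence of that choice. The data are Smart-seq2 transcriptomes of 220 cells from 28 embryos, flushed from crossbred Large White and Landrace sows after artificial insemination. The cells carried 7 labels. Morula (M) gave 47 cells from 8 embryos, the inner cell mass of the early blastocyst (EB ICM) 24 cells from 7, the trophectoderm of the early blastocyst (EB TE) 28 cells from 10, the epiblast and hypoblast of the late blastocyst (LB EPI and LB HYPO) 25 cells from 4 and 36 cells from 5, and the epiblast and hypoblast of the spherical embryo (Sph EPI and Sph HYPO) 48 cells from 4 and 12 cells from 3. Trophectoderm was removed from late blastocysts by immunosurgery, and the spherical embryos were dissected by hand. The 28 embryos were of both sexes.

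All 6 genes are best known from leukocytes. CD79B is a signalling chain of the B cell receptor, and CD247 is the zeta chain that carries the signal of the T cell receptor. CD244 is a receptor of natural killer cells that binds CD48, CD83 is a marker of mature dendritic cells, and CD200 is a membrane ligand whose receptor, CD200R1, restrains myeloid cells. In the embryo, the inner cell mass forms next to the trophectoderm and then divides into epiblast, the source of the body, and hypoblast, and surface markers are sought because they allow living cells of such states to be sorted.

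A gene was called detected in a cell where its TPM, a read share scaled to gene length and depth, was over 1. Cells held 1012604 to 5696373 counts (median 2006854). The median number of genes with at least 1 count ran from 4939 in EB TE to 6558 in Sph EPI. The labels were checked against marker genes: the summed TPM of 5 TE markers had a median of 44074 in EB TE against 195 in EB ICM, and that of 5 EPI markers had a median of 504.6 in LB EPI and 387 in Sph EPI against 0 and 25.1 in the 2 hypoblast labels. The TE list was also high in Sph HYPO, at a median of 30636, led by KRT8 and KRT18, and DAB2 was detected in 12 of 12 and GATA3 in 9 of 12 Sph HYPO cells but GATA2 in none. The summed TPM of 5 HYPO markers had a median of 146 in LB HYPO and 177 in Sph HYPO against 0 in both epiblast labels, but of 235 in M and 212 in EB ICM. NID2, of the same list, was detected in 29 of 36 LB HYPO and 11 of 12 Sph HYPO cells, in 2 EB ICM cells and in no M cell. A single EB TE cell, of embryo E6-ER, went against its label: none of the 5 TE markers was detected, at a summed TPM of 0.368 against at least 2068 in the other 27, while its morula and ICM markers summed to 725 and its HYPO markers to 322. No HYPO marker was detected in 2 LB HYPO cells, neither of which had any of the 6 genes. Markers of leukocytes were looked for, since flushed embryos could carry them. Of 16 listed, 12 were matched. PTPRC, the pan-leukocyte phosphatase, CD3D of the T cell receptor and CSF1R of macrophages had no count in any cell, and LCP1 and ITGAM were the most often detected, in 63 and 38 cells. The summed TPM of the 12 ran from 0 to 464 per cell, the highest in LB EPI. Reads carried no molecular identifiers, so copies of the same molecule could not be told apart. Intervals of count ratios and minimum folds therefore cover the counting of reads only, not the sampling of molecules. Shares of cells are given with intervals and limits that treat cells as independent, although cells of an embryo share their source, so they do not cover the spread between embryos. The limit for a share of 0 is 3 counts over the number of cells, which is lower than the upper end of the exact interval drawn in the plot of shares. No sequence of these genes is shown.

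Detection of the 6 genes was all or none in most cells. Of 1320 values, 1109 were 0, 15 were a single count, 8 were 2 to 9 counts and 188 were 10 counts or more. Each gene was detected in a minority of the 220 cells, and in no label in every cell. In EB TE none of the 6 was detected in any of 28 cells, a count of 0 that allows a share of up to 10.7%, at a median of 1945998 counts per cell. Without the E6-ER cell that lacked TE markers it was 0 of 27, which allows up to 11.11%.

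**Figure D1:**
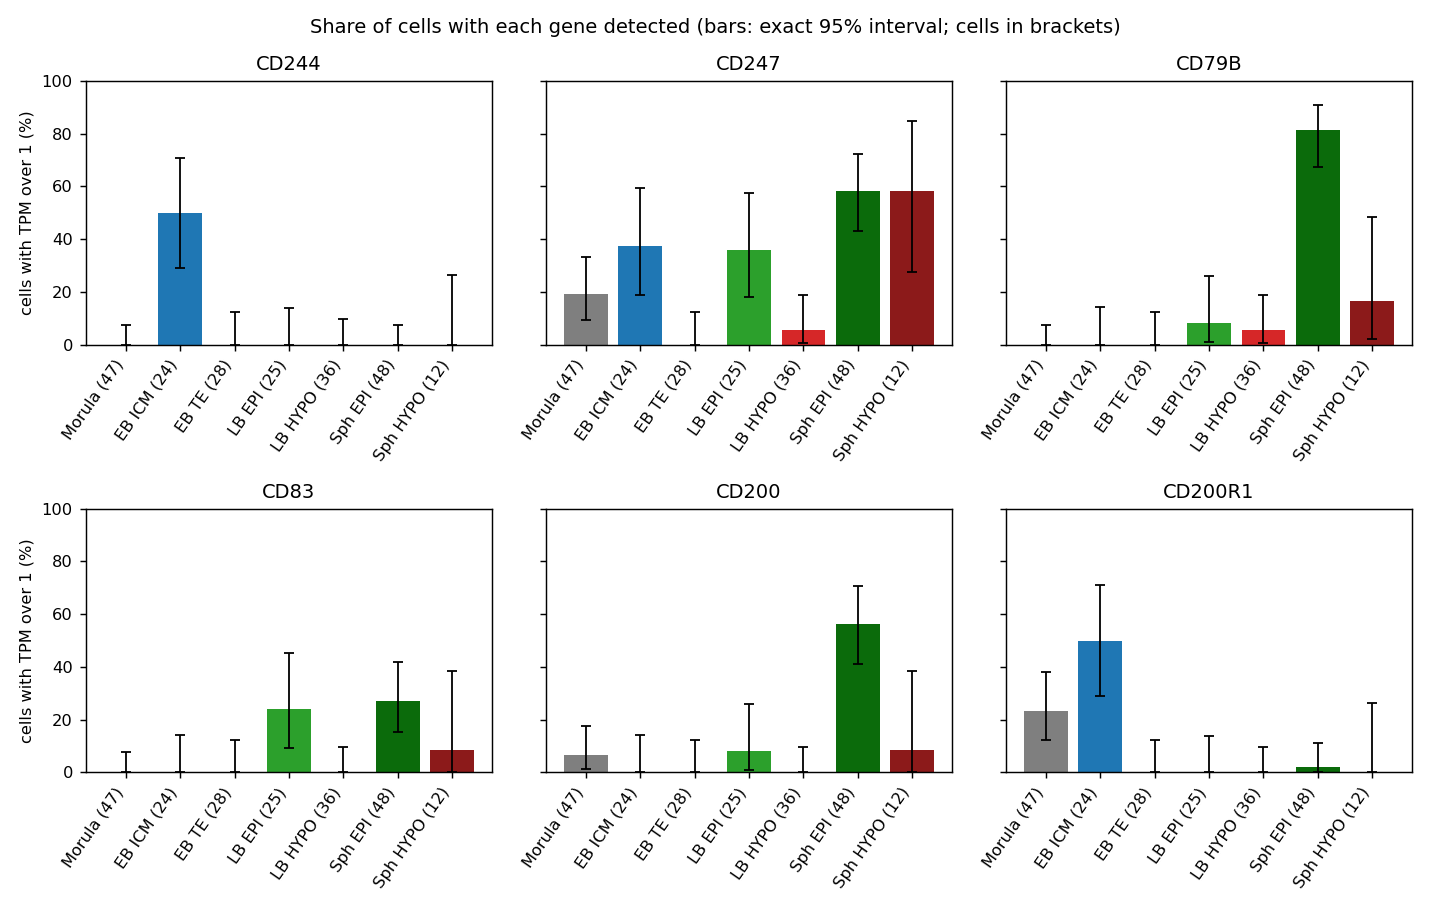
Percent of cells of each label (x axis, number of cells in brackets) with TPM over 1 for each gene (y axis), with exact Clopper-Pearson 95% intervals as black lines. CD244 reaches 50% in EB ICM alone, CD79B 81.2% in Sph EPI, and no bar rises in EB TE.

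CD244 was detected in EB ICM only. It was found in 12 of 24 EB ICM cells (50%, exact 95% interval 29.1 to 70.9%), and no cell of any other label held a single count, which allows up to 6.38% of M, 10.7% of EB TE and 6.25% of Sph EPI cells. In the cells that had it, its TPM was 32.7 to 273.9 (median 99.6) on at least 82 counts, so detection did not rest on few reads. The embryos differed. Embryo AC had CD244 in 6 of 6 ICM cells, AA in 5 of 7 and AG in 1 of 3, while AF (4 cells), AE (2), AD (1) and AI (1) had it in none. In sums over the ICM cells of each embryo, the level on the log2(CPM + 1) scale was 7.53 in AA, 7.39 in AC, 5.27 in AG and 0 in the other 4. The EB TE sums of AA, AC and AG held no CD244 count. CD244 cells came from all 8 library pools, a grouping read from the number in each sample title. The labels do not name that number as a pool.

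CD200R1, the receptor, was found in M and EB ICM. It was detected in 11 of 47 M cells (23.4%, interval 12.3 to 38.03%) and in 12 of 24 EB ICM cells (50%, 29.1 to 70.9%), with a median TPM of 30.9 and 69.0 in the cells that had it. In M it was uneven: embryo W had it in 5 of 6 cells, S and X in 2 each, ER and U in 1 each, and T, V and Y in none. In EB ICM it was detected in AA (2 of 7), AC (4 of 6), AE (1 of 2), AF (3 of 4) and AG (2 of 3). The level in EB ICM sums ran from 0 in AD and AI to 7.09 in AE (median 5.54), and that in M sums from 0 to 6.62 in S (median 2.56), so the labels overlapped. Outside them, 1 Sph EPI cell of embryo F had CD200R1 at 26.2 TPM, and 2 EB TE cells had a single count. In the RefSeq annotation of Sscrofa11.1, CD200R1L, a near copy, is the next protein-coding gene to CD200R1 with 6 protein-coding genes between CD200R1 and CD200. CD200R1L could not be matched in the tables, so reads it might share with CD200R1 could not be separated.

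CD200, the ligand, was mostly a gene of Sph EPI. It was detected in 27 of 48 Sph EPI cells (56.2%, interval 41.2 to 70.5%), at a median of 55.3 TPM. It was also found in 3 of 47 M cells, 2 of 25 LB EPI cells and 1 of 12 Sph HYPO cells, and it had no count in EB ICM, EB TE or LB HYPO. Among Sph EPI embryos it was detected in 14 of 19 cells of F, 9 of 14 of C, 4 of 11 of D and 0 of 4 of E, with levels of 5.23, 5.47, 3.36 and 0. Both LB EPI cells with CD200 came from embryo AP, whose level was 4.95 against 0 in AN, AO and AQ. The levels of the 2 epiblast labels therefore overlapped.

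CD247 was the most widespread of the 6, detected in 64 cells and in every label but EB TE. It was found in 28 of 48 Sph EPI cells (58.3%, interval 43.2 to 72.4%), 9 of 24 EB ICM cells (37.5%, 18.8 to 59.4%), 9 of 25 LB EPI cells (36%, 17.97 to 57.5%), 9 of 47 M cells (19.1%, 9.15 to 33.3%) and 2 of 36 LB HYPO cells (5.56%, 0.680 to 18.7%). Sph HYPO had it in 7 of 12 cells, all of embryo F, where 7 of 8 cells had it, and in none of 4 cells of C and E. Its level was above 0 in every LB EPI sum (0.57 in AN, 1.57 in AO, 3.38 in AQ and 3.72 in AP) and in every Sph EPI sum (2.96 in D, 3.54 in F, 5.01 in C and 5.60 in E). The high value of E came from 1 of its 4 cells. In EB ICM the level ran from 0 to 5.50 (median 2.76). The Sph HYPO cells of F held HYPO markers at a summed TPM of 95.7 to 377 and EPI markers at 0 to 119, against 0 to 259 for EPI markers in the 4 cells of C and E. NID2, a HYPO marker, was detected in all 7 F cells with CD247, and PRDM14 and SALL2, EPI markers, in none.

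CD79B was the most frequent of the 6 in 1 label. It was detected in 39 of 48 Sph EPI cells (81.2%, interval 67.4 to 91.1%), at a median of 24.9 TPM, and in all 4 embryos: 12 of 14 cells of C, 9 of 11 of D, 3 of 4 of E and 15 of 19 of F. The levels of these sums were 5.46, 5.05, 4.93 and 4.24. LB EPI had it in 2 of 25 cells, LB HYPO in 2 of 36 and Sph HYPO in 2 of 12, and M and EB ICM held no count. The LB EPI levels were 0 in AN, 0.12 in AO, 2.29 in AP and 2.40 in AQ. All 4 Sph EPI sums were above all 4 LB EPI sums. In LB HYPO the mean rested on embryo AL, a sum of 1 cell at 4.19.

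CD83 was a gene of the 2 epiblast labels. It was detected in 6 of 25 LB EPI cells (24%, interval 9.36 to 45.1%), at a median of 49.4 TPM, and in 13 of 48 Sph EPI cells (27.1%, 15.3 to 41.8%), at a median of 22.2 TPM. LB EPI levels were 5.14 in AN, 3.95 in AQ, 3.0002 in AP and 0 in AO. Sph EPI levels were 4.01 in F, 1.81 in D, 1.47 in C and 0 in E, so the labels overlapped. M, EB ICM and EB TE held no count, LB HYPO held 1 count and Sph HYPO 2, in 1 cell of F.

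**Figure D2:**
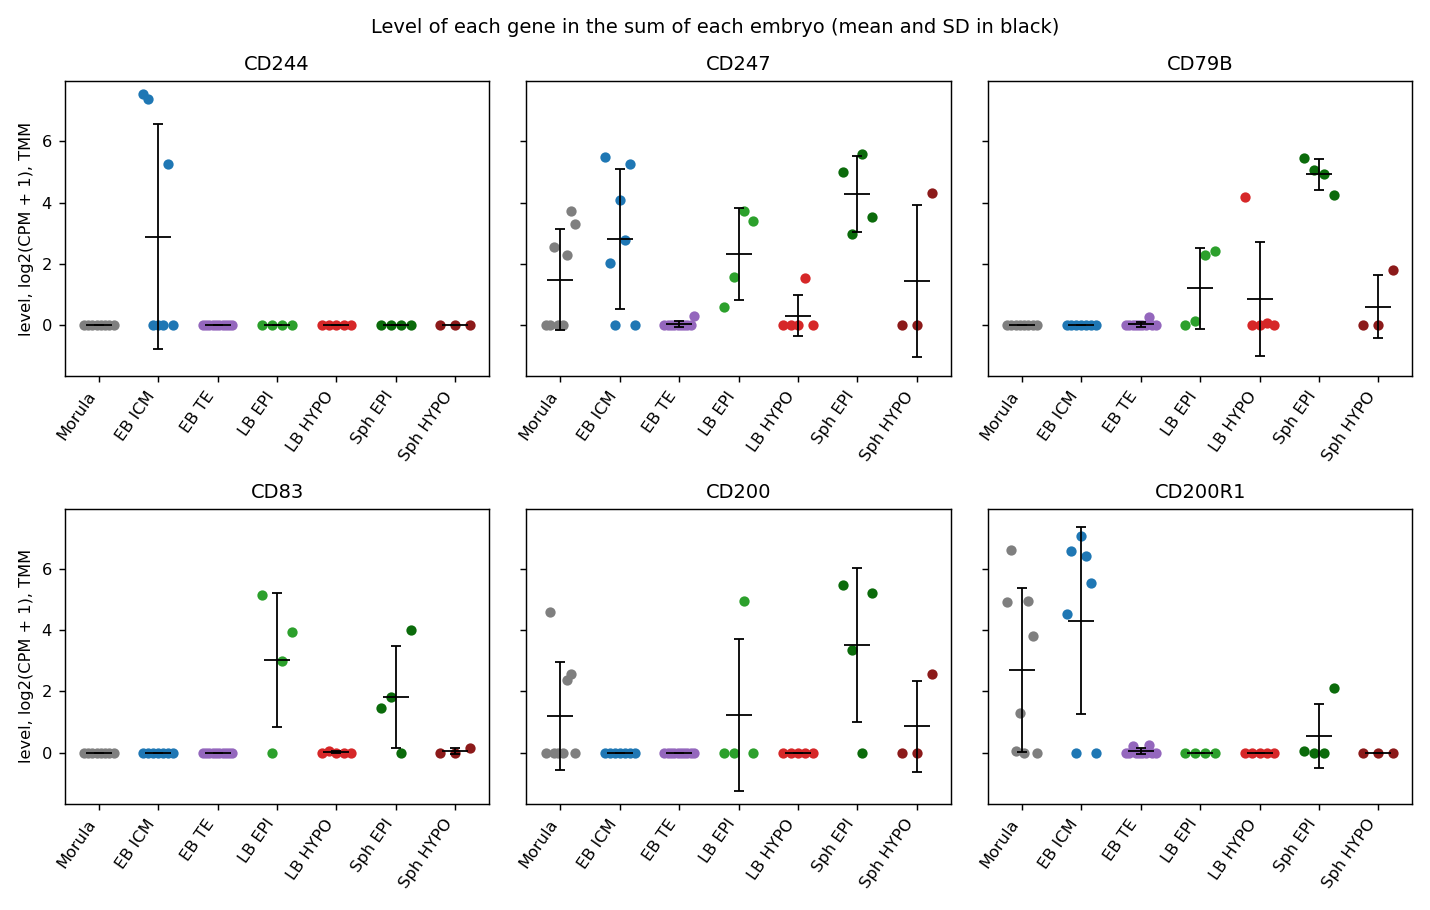
Level of each gene in the sum of the cells of each embryo, log2(CPM + 1) after TMM scaling (y axis), by label (x axis); points are embryos, and black lines the mean and SD. CD79B in Sph EPI lies between 4.24 and 5.46 in all 4 embryos, whereas CD244 in EB ICM is 5.27 to 7.53 in 3 embryos and 0 in 4.

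Ordered by mean level, CD79B ran from Sph EPI (4.92 ± 0.51, SD, n = 4) through LB EPI (1.20 ± 1.32, n = 4), LB HYPO (0.85 ± 1.87, n = 5) and Sph HYPO (0.60 ± 1.04, n = 3) to EB TE (0.03 ± 0.08, n = 10), and the step from Sph EPI to LB EPI was the only one among neighbouring labels, for any of the 6 genes, at which embryo ranges did not overlap. CD247 ran from Sph EPI (4.28 ± 1.23, n = 4) through EB ICM (2.80 ± 2.28, n = 7), LB EPI (2.31 ± 1.49, n = 4), M (1.48 ± 1.64, n = 8), Sph HYPO (1.44 ± 2.49, n = 3) and LB HYPO (0.30 ± 0.68, n = 5) to EB TE (0.03 ± 0.09, n = 10). CD200R1 was at 4.31 ± 3.06 in EB ICM (n = 7) and 2.71 ± 2.67 in M (n = 8). CD83 was at 3.02 ± 2.20 in LB EPI (n = 4) and 1.82 ± 1.66 in Sph EPI (n = 4). CD200 was at 3.52 ± 2.53 in Sph EPI (n = 4), 1.24 ± 2.48 in LB EPI (n = 4) and 1.19 ± 1.77 in M (n = 8), and CD244 at 2.88 ± 3.67 in EB ICM (n = 7).

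Between genes, levels were compared as TPM, which is scaled to gene length. Mean TPM over the EB ICM cells was 53.5 for CD244, 41.8 for CD200R1 and 37.4 for CD247. Mean TPM over the Sph EPI cells was 39.6 for CD200, 30.9 for CD79B, 28.3 for CD247 and 7.10 for CD83. In the cells that had a gene, medians lay between 13.5 and 179 TPM wherever at least 2 cells of a label had it.

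**Figure D3:**
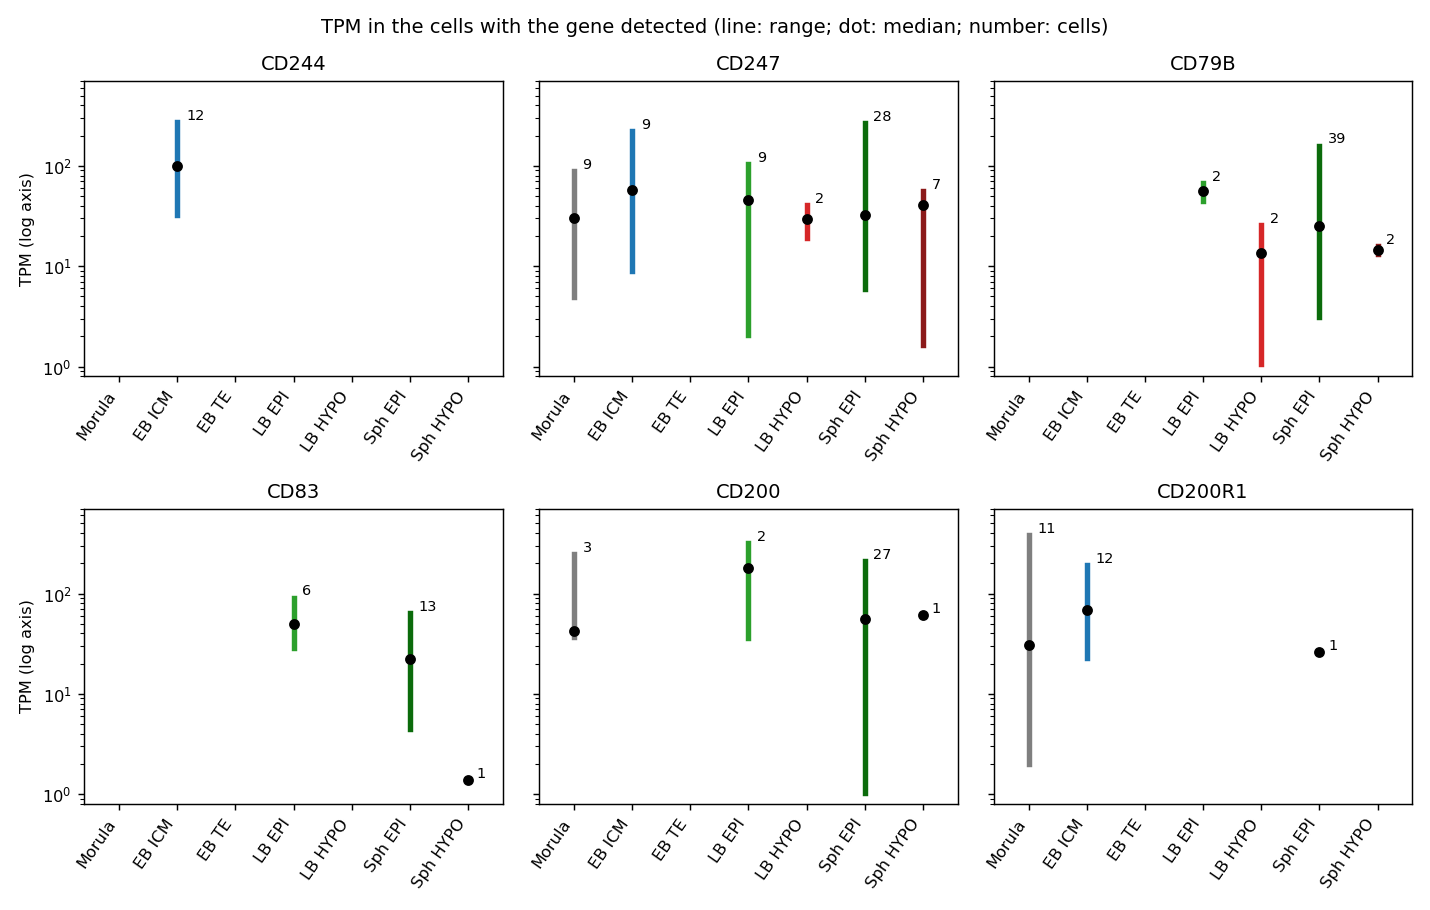
TPM (y axis, log scale) of each gene in the cells where it was detected, by label (x axis): lines give the range, dots the median and numbers the cells. The lowest value of CD244 is 32.7 TPM, whereas CD247 and CD79B reach down to 1.65 and 1.06 TPM.

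Labels were compared with edgeR's quasi-likelihood test on the sums per embryo, with Benjamini-Hochberg adjustment over 14721 genes and a threshold of 0.05. All 6 genes passed the filter on low values, TPM over 1 in at least 3 cells of any label. CD244 passed through its 12 EB ICM cells alone, so its passing is not separate from the differences tested below. The study had named all 6 genes for their pattern in these cells, so no call below is independent support for those patterns. Where a label held no count, only a minimum fold is stated, computed from the pooled counts as though that label had held 3 counts in all. It allows for error in counting reads only, not for the sampling of molecules or the spread between embryos. Leaving out a single embryo can therefore take the fold below the stated minimum.

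From M to EB ICM, CD244, which the study named for its ICM pattern in these cells, was the only 1 of the 6 called. It was higher in EB ICM, and the call stands beside 2.45% of all genes tested. Its 4699 counts in EB ICM against 0 in M put it at least 3076-fold higher in EB ICM (adjusted p = 0.0342, edgeR), or 1853-fold without embryo AA. CD200 had 541 counts in M and 0 in EB ICM, at least 91.8-fold higher in M, but did not pass (adjusted p = 0.105, edgeR). Of the 541 counts, 410 came from 1 cell of embryo S, and without S the minimum was 27.2-fold. CD200R1 and CD247 differed by log2 fold changes of -1.44 ± 1.44 (SE, adjusted p = 0.678) and -2.11 ± 1.61 (adjusted p = 0.519), the minus sign meaning higher in EB ICM. The CD244 call was lost without embryo AA, AC or AG of EB ICM, or ER, S, T, U, W, X or Y of M, with adjusted p of 0.0506 to 0.0647.

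Between EB ICM and EB TE, 2 of the 6 genes were higher in EB ICM, CD247 and CD200R1, beside 0.754% of all genes. CD247 had 1092 counts against 1, a ratio of 1220.0 (exact 95% counting interval 219 to 48233, adjusted p = 0.0215), and CD200R1 3416 against 2, a ratio of 1908 (528 to 15764, adjusted p = 0.00457). CD244, with 4699 counts against 0 and so at least 1750.0-fold higher in EB ICM, did not pass with edgeR (adjusted p = 0.0633, and 0.0587 to 0.124 leaving out each embryo). It was called by DESeq2 (9.34e-16) and with all 7 labels in one edgeR model (0.0243), which called 457 and 865 genes in all. The only CD247 count of EB TE was in the E6-ER cell without TE markers. Without that cell CD247 was at least 384-fold higher in EB ICM (adjusted p = 0.0445), and CD200R1 was still called (0.00364). Without AA of EB ICM the CD247 ratio was 699.8 and the CD244 minimum 1054. Each of the 2 CD200R1 counts was in another EB TE embryo, AC and AH, and without either the ratio was 3421 or 3500.3. ICM and TE cells came in part from the same 7 embryos. With the embryo as a block in the model, neither call held (adjusted p = 0.516 for CD247 and 0.0899 for CD200R1). The CD247 call was also lost without AA or AG of EB ICM (adjusted p = 0.0588 and 0.0579).

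From EB ICM to LB EPI, CD200R1 fell, the only call of the 6 beside 2.91% of all genes. It had 3416 counts in EB ICM and 0 in LB EPI, at least 1104-fold lower (adjusted p = 0.0386). CD244 had 0 counts in LB EPI, at least 1519-fold lower, and CD83, CD200 and CD79B had 0 in EB ICM, at least 182-fold, 175-fold and 50.5-fold higher in LB EPI, and none of the 4 passed with edgeR (adjusted p = 0.114, 0.0735, 0.144 and 0.126). DESeq2 called CD244 (1.29e-13) and CD83 (0.00233) as well as CD200R1, and all 7 labels in one edgeR model CD83 (0.0126) and CD79B (0.0361) as well as CD200R1. Over all genes, DESeq2 called 1388 and the model of 7 labels 755. All CD200 counts of LB EPI came from AP. The CD200R1 minimum was 734-fold without AP and 708.02-fold without AQ. CD247 differed by 1.29 ± 1.73 (SE, adjusted p = 0.806). The CD200R1 call was lost without AA, AC, AE, AF or AG of EB ICM or any of the 4 LB EPI embryos, AN, AO, AP and AQ, with adjusted p of 0.0582 to 0.0948.

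Between LB EPI and LB HYPO none of the 6 was called by edgeR, beside 1.92% of all genes. CD83 and CD200 were under an unadjusted p of 0.05 with edgeR, beside 2943 of the 14721 genes tested. DESeq2 called 1 of the 6, beside 1387 genes in all, and limma 0, beside 696. CD83 had 528 counts in LB EPI and 1 in LB HYPO, a ratio of 675 (interval 121 to 26695, adjusted p = 0.0841), and without LB EPI embryo AO, which lacked it, the adjusted p was 0.0464. Its single LB HYPO count was in AM, without which it was at least 133-fold higher in LB EPI. CD200 had 509 counts, all of embryo AP, against 0, at least 217-fold higher in LB EPI (adjusted p = 0.241). CD247 differed by 3.83 ± 2.23 (adjusted p = 0.366), and all its 47 LB HYPO counts came from AO. CD79B differed by -0.76 ± 2.52 (adjusted p = 0.976), and the sign turned without the 1 LB HYPO cell of AL, to 6.46. LCP1, the leukocyte marker most often detected, was found in 17 of 25 LB EPI and 5 of 36 LB HYPO cells and was higher in LB EPI (6.18 ± 1.17, adjusted p = 0.0165), while PTPRC had no count. With the embryo as a block, 20 genes in all were called in place of 283, and none of the 6.

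From LB EPI to Sph EPI none of the 6 was called by edgeR, beside 0.156% of all genes, 23 in number. With edgeR, 1999 of the 14721 genes tested were under an unadjusted p of 0.05, and of the 6 only CD79B. DESeq2 called 828 genes in all and limma 97, and of the 6 each called only CD79B. It had 147 counts in LB EPI and 3127 in Sph EPI, a log2 fold change of -3.82 ± 1.48 (SE, higher in Sph EPI, adjusted p = 0.359 with edgeR, 0.0242 with DESeq2 and 0.0215 with limma). CD247, CD200 and CD83 differed by -1.95 ± 1.23, -1.49 ± 2.30 and 1.62 ± 1.91, with adjusted p of 0.534, 0.896 and 0.828. Single embryos moved these values. Without AP, LB EPI held no CD200 count and CD200 was at least 304-fold higher in Sph EPI (adjusted p = 0.355), and the CD83 difference was 0.63 without AN of LB EPI and 3.37 without F of Sph EPI.

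Between Sph EPI and Sph HYPO none of the 6 was called by edgeR, beside 1.13% of all genes, and over the genes tested the log2 fold changes had a median of 0.57. CD79B and CD83 were under an unadjusted p of 0.05 with edgeR, beside 2236 of the 14721 genes tested. DESeq2 and limma each called 1 of the 6, CD79B, beside 1453 and 367 genes in all. CD79B had 3127 counts against 41, a log2 fold change of 5.11 ± 1.94 (adjusted p = 0.270 with edgeR), and CD200 3077 against 82, a change of 3.68 ± 2.46 (adjusted p = 0.477). Every count of the 6 genes in Sph HYPO came from embryo F. Without F of Sph HYPO that label held no CD79B count, and the adjusted p of CD79B was 0.0412 (edgeR). In that setting 583 genes in all were called in place of 167, and the median log2 fold change was 1.54 in place of 0.57. With the embryo as a block, 82 genes in all were called in place of 167, and none of the 6. CD83 had 734 counts against 2, a ratio of 81.3 (22.4 to 673, adjusted p = 0.328), or 21.2 without F of Sph EPI. CD247 differed by 1.95 ± 2.01 (adjusted p = 0.686). Whether the epiblast to hypoblast difference itself changed from LB to Sph was tested as an interaction with edgeR. None of the 6 was called, beside 0.0408% of all genes, with adjusted p of 0.601 for CD79B and 0.617 for CD200. None was under an unadjusted p of 0.05 either, beside 1597 of the 14721 genes tested.

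Co-detection per cell was then counted. Of the 220 cells, 111 had none of the 6 genes, 51 had 1, 35 had 2, 16 had 3, 6 had 4 and 1 had 5. All 28 EB TE cells and 32 of 36 LB HYPO cells had none, against 30 of 47 in M, 9 of 25 in LB EPI, 5 of 24 in EB ICM and 3 of 48 in Sph EPI. In LB EPI 14 of 25 cells had exactly 1, and in EB ICM 12 of 24 had exactly 2.

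**Figure D4:**
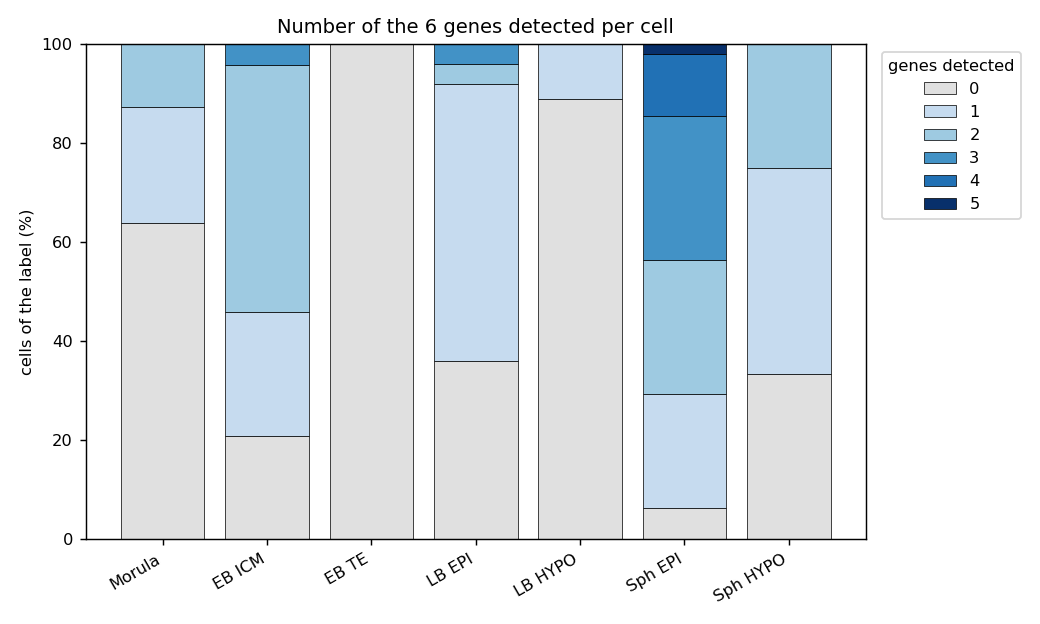
Percent of the cells of each label (y axis) by the number of the 6 genes detected in the cell (shades). EB TE is all 0, 50% of EB ICM cells have 2 genes, and Sph EPI alone holds cells with 4 or 5.

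In EB ICM, CD244 and CD247 were detected together in 6 cells, CD244 and CD200R1 in 5, CD247 and CD200R1 in 4, and all 3 in 1 cell. The product of the single shares is 4.5, 6 and 4.5 cells for the 3 pairs. The pair CD244 and CD247 was found in embryos AA (3 cells), AC (2) and AG (1), and CD244 and CD200R1 in AC (4) and AA (1). Since cells of an embryo share their source, these counts are a description. CD244 was in no cell together with CD79B, CD83 or CD200.

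In Sph EPI, CD247 and CD79B were detected together in 26 of 48 cells (product of shares 22.8), CD79B and CD200 in 24 (21.9), CD247 and CD200 in 19 (15.8), CD79B and CD83 in 11 (10.6), CD247 and CD83 in 9 (7.58) and CD83 and CD200 in 8 (7.31). The commonest combination was CD247, CD79B and CD200 without the others, in 11 cells, and 6 more had CD83 as well. The 1 Sph EPI cell with CD200R1, of embryo F, had every gene but CD244. Of 28 Sph EPI cells with CD247, 92.9% had CD79B, and of 27 with CD200, 88.9% had it. All 6 pairs lay above the product of the shares, but that product pools embryos whose shares differed. CD200 was detected in 14 of 19 cells of F, 9 of 14 of C, 4 of 11 of D and 0 of 4 of E. CD83 was detected in 8, 3, 2 and 0 of the same cells. Products within embryos were not computed, so these differences are a description. Embryo E gave 4 of the cells and had neither CD200 nor CD83, and its part in these differences was not tested.

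**Figure D5:**
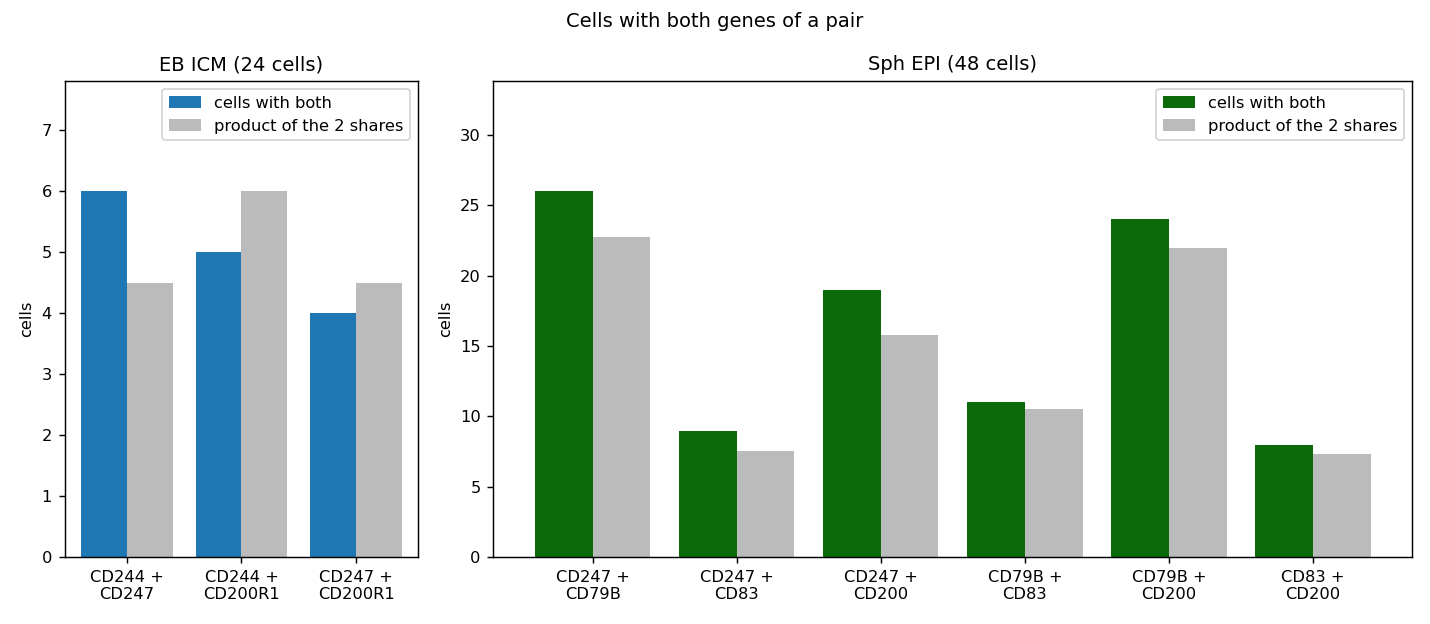
Cells with both genes of a pair detected (coloured bars) beside the product of the single shares times the number of cells (grey bars), for EB ICM and Sph EPI; the y axis counts cells. CD247 and CD79B reach 26 of 48 Sph EPI cells against 22.8.

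The ligand CD200 and its receptor CD200R1 were found in the same cell 3 times, in M cells of embryos S and W and in the Sph EPI cell of F. In M, 2 of the 3 cells with CD200 had CD200R1. In LB EPI, 1 cell of AP had CD247, CD83 and CD200, and 1 cell of AN had CD247 and CD83. In Sph HYPO, 1 cell of F each had CD247 with CD200, CD247 with CD79B, and CD79B with CD83.

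Genes that these receptors work with in leukocytes ranged from undetected to found in most cells. Of 31 listed partners, 18 were matched and 14 passed the filter. FYN, a Src family kinase, rose from M to EB ICM, with 16 counts against 710 (log2 fold change -6.99 ± 1.75, adjusted p = 0.0387, edgeR). It was the only partner called in any comparison, beside 2.45% of all genes tested from M to EB ICM. CD48, the ligand of CD244, was detected in 1 EB ICM cell, which lacked CD244, and SH2D1A, its adaptor, in no cell. FCER1G, an adaptor chain, was detected in 3 EB ICM cells and LYN, a Src family kinase, in 9, and 3 and 7 of these had CD244. SYK, the kinase downstream of CD79B in B cells, was detected in 8 Sph EPI cells, and all of them had CD79B, itself in 39 of 48. DOK2, an adaptor downstream of CD200R1, was detected in 22 of 48 Sph EPI cells and 2 of 24 EB ICM cells. CD3D had no count, LCK was found in 3 Sph EPI cells, and CD79A, CD3E, CD3G and ZAP70 were not analysed here. PTPN11, a phosphatase, was detected in 202 of the 220 cells, RASA1, a Ras GTPase-activating protein, in 153 and LYN in 80, each more often than any of the 6 genes, of which CD247 was the most frequent with 64. DOK1, an adaptor, was detected in 29 cells, PTPN6, a phosphatase, in 14 and MARCHF8, a ubiquitin ligase, in 10.

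Other surface molecules were compared in the same way. Of 95 CD molecules of embryonic and epithelial cells listed, 67 were matched and 63 tested. Of all genes tested, 2.45%, 0.754%, 2.91%, 1.92%, 1.13% and 0.156% were called in the comparisons below, in their order. From M to EB ICM, 9 rose and 1 fell, with a median log2 fold change of -0.90 over the list beside 0.02 over all genes. The largest rises were ITGA5, an integrin (-10.25 ± 0.88), PECAM1 (-5.01 ± 1.15) and IL6R, the interleukin 6 receptor (-4.69 ± 0.58), and IGF2R fell (4.63 ± 1.12). Between EB ICM and EB TE, PECAM1 (9.82 ± 1.16), FGFR4 (6.18 ± 1.334), IL6R (4.17 ± 0.77) and CDH2, with 3555 counts against 3, were higher in EB ICM and none was lower. From EB ICM to LB EPI, IL6R (7.66 ± 1.06) and CD9 (2.14 ± 0.45) fell. In LB HYPO, IL6R (-5.67 ± 1.07), MME (-4.94 ± 0.92) and CD151 (-3.45 ± 0.72) led 7 genes that were higher than in LB EPI, and ERBB2 (5.11 ± 0.99) was higher in LB EPI. MME (-2.98 ± 0.53) and PECAM1, with 1 count in Sph EPI and 3867 in Sph HYPO, were higher in Sph HYPO. No gene of the list was called from LB EPI to Sph EPI. IL6ST, or CD130, which the study set beside these genes, was detected in 24 of 24 EB ICM, 44 of 47 M, 32 of 36 LB HYPO, 16 of 28 EB TE, 13 of 25 LB EPI, 17 of 48 Sph EPI and 4 of 12 Sph HYPO cells, and it was called in no comparison (adjusted p of 0.113 to 1).

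The genes with the most similar pattern were taken by Pearson correlation of log2(CPM + 1) over the 41 sums of embryo and label, among 9410 genes with a symbol. This is a description over sums that share embryos and differ in cell number. CD244 was above 0 in only 3 sums, all of EB ICM, and the other 5 genes were also 0 in many sums. Shared zeros therefore enter these correlations. For CD244 they were GDF10 (r = 0.88), CHST4 (0.86) and ASGR1 (0.83). For CD200R1 they were MEGF11 (0.75), EDARADD (0.75) and MAST3 (0.71), and for CD247 ROR1 (0.73) and SFRP1 (0.69). For CD79B they were HECTD2 (0.92), CYFIP2 (0.92) and CHN1 (0.91), for CD83 GGT7 (0.92), CNR1 (0.90) and FRMPD4 (0.89), and for CD200 IQCC (0.85), SYT10 (0.81) and CPVL (0.80). Among the 6 themselves the highest r were 0.57 for CD79B and CD200, 0.50 for CD244 and CD200R1 and 0.49 for CD247 and CD79B.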

How the data were processed

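The authors aligned Smart-seq2 reads with HISAT2 2.1.0 and counted them per gene with HTSeq. They deposited raw counts per gene and the TPM derived from them for 22840 entries in 220 cells, and both tables were used as deposited. All columns were mapped to a sample (0 unused). Smart-seq2 does not mark strand, so antisense reads could not be separated.

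The embryo, read from the letters of the cell identifier, was the replicate. Counts were summed per embryo and label, giving 41 sums of 1 to 19 cells, 6 of them a single cell, and 1 M cell without an embryo was left out of the sums. The 14721 genes detected (TPM above 1) by 3 cells or more were scaled by TMM and compared with edgeR 4.0.16 under R 4.3.3 (glmQLFit, glmQLFTest, Benjamini-Hochberg). SE is the log2 fold change over the square root of F, and a positive value is higher in the label named first. Shares carry exact Clopper-Pearson intervals (scipy 1.17.1), and a count of 0 allows 3 counts of the total. On simulated counts with known changes, the changed genes that edgeR called had the right sign, and DESeq2 called more unchanged genes than edgeR in all 6 comparisons. Those counts were drawn with dispersions estimated by edgeR, and changes were placed only in genes above a set mean count. The simulation therefore cannot rank the tools for genes that are 0 in most sums. The 6 genes, the gene lists and the tests were chosen with earlier results of these data known. The genes named were the 6, the 3 most correlated with each, IL6ST, partners detected in at least 10 cells, and the 3 largest called changes in each direction among CD molecules; other partners and leukocyte markers were named after their values were seen. Some genes that these rules name are not reported here. Symbols covered 11437 entries.

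The same embryo gave both labels in 3 comparisons, so pairing came from the design. Correlations of residuals between sums of the same embryo over 11433 genes were -0.04 to 0.08 for 7 EB pairs, -0.0018 to 0.09 for 3 LB pairs and 0.02 to 0.18 for 3 Sph pairs. The study's methods have no such block, and it entered as an alternative. Alternatives were DESeq2 1.42.0, limma 3.58.1 on mean log2(TPM + 1), RLE scaling, no filter, all 7 labels in one model, the embryo as a block, the first 4 or last 4 library pools, sums of at least 2 cells, leaving out 2 cells of less certain embryo and each embryo in turn, and, for detection, a count of at least 1 or 10 and cells thinned to 1000000 counts. Leaving out the EB TE cell without TE markers from shares, and single embryos from minimum folds and ratios, was chosen after seeing the data.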

Additional observations from a re-analysis of the deposited data

Results flagged for a closer look

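Within each label of 4 to 10 embryos, the highest or lowest embryo was compared with the rest for each gene, and 7 of 21 sets with any count had an embryo apart from the others by Dixon's test. Chance flags about 1 in 20 sets, but most sums here are 0, so that a single sum with counts stands apart. CD200 in LB EPI was at 4.95 in embryo AP and 0 in the other 3. CD79B in LB HYPO was at 4.19 in AL, a sum of 1 cell, against 0 to 0.06 in the other 4. CD200R1 in Sph EPI was at 2.11 in F against 0 to 0.05, and CD247 in LB HYPO at 1.52 in AO against 0. The other 3 rest on a single count each: CD247 in EB TE at 0.28 in E6-ER, CD79B in EB TE at 0.27 in AH and CD83 in LB HYPO at 0.0592 in AM.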

How the results depend on the processing

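The number of the 6 genes called depended on the tool and on single embryos. In M against EB ICM it was 1, and 0 with limma and in the first 4 or last 4 pools alone (0 to 1 leaving out each embryo). In EB ICM against EB TE it was 2, 3 with DESeq2 and with all 7 labels in one model, and 0 with limma, with the embryo as a replicate block and in the first 4 or last 4 pools (1 to 2). In EB ICM against LB EPI it was 1, 3 with DESeq2 and with all 7 labels in one model, and 0 with limma and in the first 4 pools (0 to 1). In LB EPI against LB HYPO it was 0, and 1 with DESeq2 (0 to 1). In LB EPI against Sph EPI it was 0, and 1 with DESeq2 or limma (0 to 0). In Sph EPI against Sph HYPO it was 0, and 1 with DESeq2 or limma (0 to 1). The difference between stages gave 0 throughout (0 to 0). The cause was not tested. The log2 fold change of CD79B in LB EPI against LB HYPO turned from -0.76 to 3.28 with the block, 0.18 in the first 4 pools and 6.46 without AL or in sums of at least 2 cells (-1.37 to 6.46 leaving out each embryo). CD200 in EB ICM against LB EPI and in LB EPI against LB HYPO turned without AP, the only LB EPI embryo with a count, with an adjusted p of 1 in both (0.159 to 1 and 0.258 to 1 leaving out each embryo).

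Over all genes, edgeR called 361, 111, 428, 283, 23 and 167 in the 6 comparisons in the order above, DESeq2 1216, 457, 1388, 1387, 828 and 1453, and limma 666, 226, 969, 696, 97 and 367. One model of all labels called 865 in EB ICM against EB TE, 755 in EB ICM against LB EPI, 170 in LB EPI against LB HYPO and 95 in Sph EPI against Sph HYPO. The first 4 pools called 38, 39, 123, 113, 15 and 149 and the last 4 called 132, 9, 195, 64, 7 and 89. The block called 89, 20 and 82 in the 3 comparisons within a stage. No filter called 51 in LB EPI against Sph EPI, and dropping the 2 cells whose embryo is uncertain called 184 in EB ICM against EB TE. Leaving out each embryo gave 250 to 419, 58 to 184, 239 to 428, 138 to 294, 11 to 41 and 78 to 583, and 0 to 165 for the difference between stages, 6 in the main model. RLE scaling moved the median over the genes tested to 0.12 (log2) in LB EPI against LB HYPO, and from 0.57 to 0.44 in Sph EPI against Sph HYPO. Of the shares of cells under other detection rules, 131 stayed within the interval of the main share and 1 did not. Labels with 3 to 5 embryos, sums of a single cell and detection in few cells limit all these comparisons.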

Other observations

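The 1 M cell that could not be assigned to an embryo had no count of any of the 6 genes.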
